A study of Rattus norvegicus with 3 samples.

Results

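The proteasome is the protein machine that degrades most ubiquitin-tagged proteins in cytosol and nucleus. Its barrel-shaped core is built of rings of alpha subunits (Psma genes), which gate the entrance, and rings of beta subunits (Psmb genes), of which Psmb5, Psmb6 and Psmb7 cut peptide bonds. A regulatory particle of ATPases (Psmc genes), which unfold substrates, and non-ATPase subunits (Psmd genes), which bind and strip ubiquitin chains, caps the barrel. Activators (Psme genes) can replace that cap, Psmf1 encodes an inhibitor of the core, and Psmg genes encode chaperones of core assembly. In interferon-exposed and immune cells, Psmb8, Psmb9 and Psmb10 take the place of the constitutive catalytic subunits.

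The transcripts of these genes were examined on 3 Affymetrix arrays, each of 1 preparation of kidney proximal tubules. The rats were Sprague-Dawley males, 7 to 8 weeks old. Per the labels, all animals had been given 250 units of heparin intraperitoneally 30 min before decapitation, their kidneys were perfused with 10 ml of cold saline and 10 ml of collagenase (2 mg/ml), and the cortex was digested for 20 min before the tubules were banded in 42.5% Percoll. All 3 preparations form 1 group without any other treatment, tissue or control, and the labels do not say whether preparations came from separate animals. Members were the probe sets whose annotation names exactly 1 gene with a symbol beginning Psm, a letter from a to g and a digit, leaving out Psmb8, Psmb9 and Psmb10. This gave 57 probe sets of 43 genes, out of 20826 probe sets of 14217 genes that name 1 gene. Of the 43 genes, 41 belong to the proteasome and its helpers, and the pattern also took in Psmc3ip and Psme3ip1, which encode no proteasome subunit. Psmb6 and Psme3 lie only on probe sets that name several genes and are not members, and the testis form Psma8 and the thymus form Psmb11 were not analysed here.

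The 3 arrays resembled the labelled tissue. All 20 listed markers of proximal tubule exceeded the array median on each of the 3 arrays, against 61.0% of all named genes. Among them was the endocytic receptor gene Lrp2 with signals of 9080, 7948 and 8622 on arrays 1, 2 and 3. Some markers of other cells exceeded it on all 3 arrays too: 5 of 6 of thick limb and distal tubule and 5 of 5 of endothelium. For 5 lists the share was below that of all named genes. These were 1 of 6 of collecting duct, 1 of 4 of podocytes, 2 of 9 of leukocytes, 1 of 3 of red cells and 3 of 6 of stroma. Summed marker signals ran from 11022 to 13147 for thick limb and distal tubule and from 756 to 1269 for endothelium, the lowest endothelial sum being on array 1. They ran from 905 to 1009 for collecting duct, from 150.4 to 193 for podocytes, from 702 to 873 for leukocytes, from 90.04 to 185 for red cells and from 445 to 547 for stroma. Aqp2 of collecting duct, Nphs1 of podocytes and Ptprc of leukocytes lay below the array median on every array. On all 3 arrays, Aqp3 of collecting duct (940, 808 and 858) and Podxl of podocytes (61.5, 109 and 102) exceeded it. So did Lyz2 (623, 580 and 732) and Csf1r (51.0, 39.8 and 58.4) of leukocytes. Since proteasome genes are expressed in all of these cells, and fewer cells of a type cannot be told apart from less RNA per cell in a bulk preparation, the part of other cells in the values below was not tested. Array medians over all 31042 non-control probe sets were 37.1, 37.4 and 34.9, and the 75th percentiles were 181, 167 and 167. Signals are linear values as deposited, given in the order of arrays 1, 2 and 3, and no gene is placed above another by its signal, since each probe set binds with its own strength.

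Promoter sequences of 4 genes are shown: Psmb5 and Psmb7 encode catalytic subunits of the constitutive core, and Psme1 and Psme2 encode both chains of the interferon-inducible activator. Each runs from 250 bases before to 50 bases after the start of the gene in RefSeq, build GRCr8, read 5′ to 3′ on the gene's strand. Capitals mark every match to the motifs TGACNNNGC (core of the antioxidant response element, which NFE2L1 and NFE2L2 bind), CCAAT (the CCAAT box), GGGCGG (the GC box), CCGGAAG (an ETS-type motif), GAAANNGAA (a core of the interferon-stimulated response element) and TTCNNNGAA (a STAT-type motif), on either strand. The intervals are chr15:32047330-32047629 on the minus strand for Psmb5, chr3:42827421-42827720 on the minus strand for Psmb7, chr15:33038721-33039020 on the plus strand for Psme1 and chr15:33052702-33053001 on the minus strand for Psme2.
Psmb5: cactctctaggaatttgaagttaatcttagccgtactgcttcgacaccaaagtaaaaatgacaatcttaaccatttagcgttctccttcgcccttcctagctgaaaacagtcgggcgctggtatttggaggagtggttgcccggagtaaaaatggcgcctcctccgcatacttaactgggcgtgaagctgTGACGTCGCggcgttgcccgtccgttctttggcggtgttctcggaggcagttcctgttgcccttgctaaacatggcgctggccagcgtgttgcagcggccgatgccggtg
Psmb7: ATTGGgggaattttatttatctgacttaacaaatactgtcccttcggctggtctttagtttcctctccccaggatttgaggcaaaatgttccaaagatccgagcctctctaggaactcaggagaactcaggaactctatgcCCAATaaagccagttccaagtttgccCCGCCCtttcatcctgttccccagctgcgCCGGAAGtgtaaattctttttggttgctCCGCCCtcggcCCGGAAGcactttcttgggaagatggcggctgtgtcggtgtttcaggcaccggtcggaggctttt
Psme1: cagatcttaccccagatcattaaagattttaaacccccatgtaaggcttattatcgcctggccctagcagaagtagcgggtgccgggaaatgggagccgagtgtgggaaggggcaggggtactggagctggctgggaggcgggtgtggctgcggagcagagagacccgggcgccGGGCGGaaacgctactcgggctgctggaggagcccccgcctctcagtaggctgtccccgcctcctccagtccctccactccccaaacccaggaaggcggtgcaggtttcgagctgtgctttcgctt
Psme2: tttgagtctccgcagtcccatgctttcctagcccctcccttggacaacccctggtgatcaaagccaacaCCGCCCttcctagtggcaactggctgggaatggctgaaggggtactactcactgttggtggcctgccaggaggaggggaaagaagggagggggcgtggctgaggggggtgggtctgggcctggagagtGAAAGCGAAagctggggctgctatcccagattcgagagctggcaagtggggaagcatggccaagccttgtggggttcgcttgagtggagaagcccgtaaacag

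In the Psmb5 promoter, the antioxidant response core TGACGTCGC began 60 bases before the gene start. In the Psme2 promoter, GAAAGCGAA began 53 bases before the start, while the Psme1 window held no match to that motif. The Psmb7 promoter held 2 matches each of the CCAAT box, the GC box and the ETS-type motif. Promoters were given for 37 of the 41 proteasome genes. Those of Psma7, Psmd6, Psmd12 and Psmd14 are not shown or counted here.

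Over the 37 member promoters, the ETS-type motif CCGGAAG was found in 13 (35.1%), compared with 9.22% of all 27457 promoters of the same length and 15.1% of the 11733 promoters of genes named on the array. GGGCGG was found in 27 (73.0%, against 34.9% and 57.5%) and CCAAT in 18 (48.6%, against 37.7% and 37.3%). The antioxidant response core was present in 7 promoters (18.9%, against 12.2% and 14.4%), those of Psma3, Psmb2, Psmb5, Psmd1, Psmd3, Psmd9 and Psme4. GAAANNGAA was also present in 7 (18.9%, against 9.50% and 7.18%), those of Psma4, Psmb2, Psmb3, Psmd7, Psmd11, Psme2 and Psmg4. TTCNNNGAA was present in 3 (8.11%, against 8.68% and 6.99%), those of Psmc6, Psmd3 and Psmd7. Member promoters had a median GC content of 57.0%, against 52.3% for all promoters and 60.0% for those of array genes. Each motif was counted on its own, also where matches overlap, and these shares describe letters in these windows only.

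Proteasome transcripts stood above the middle of the array in every class of subunit. Of the 57 member probe sets, 51 exceeded the array median on all 3 arrays, against 54.5% of all probe sets that name 1 gene, and 47 exceeded the 75th percentile on all 3, against 29.0%. When each gene was read from the brightest of its probe sets, by mean over arrays, all 43 genes exceeded the array median on each of the 3 arrays, against 61.0% of all named genes. The median member signal was 654, 575 and 548, and the median over all 1-gene probe sets was 62.1, 59.6 and 59.2. Psmc3ip and Psmg3 were the only genes for which no probe set exceeded the 75th percentile on all 3 arrays. Psmc3ip, known for a role in meiotic recombination, gave 96.3, 79.7 and 65.2, and Psmg3, a core assembly chaperone, gave 187, 193 and 154.

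**Figure D1:**
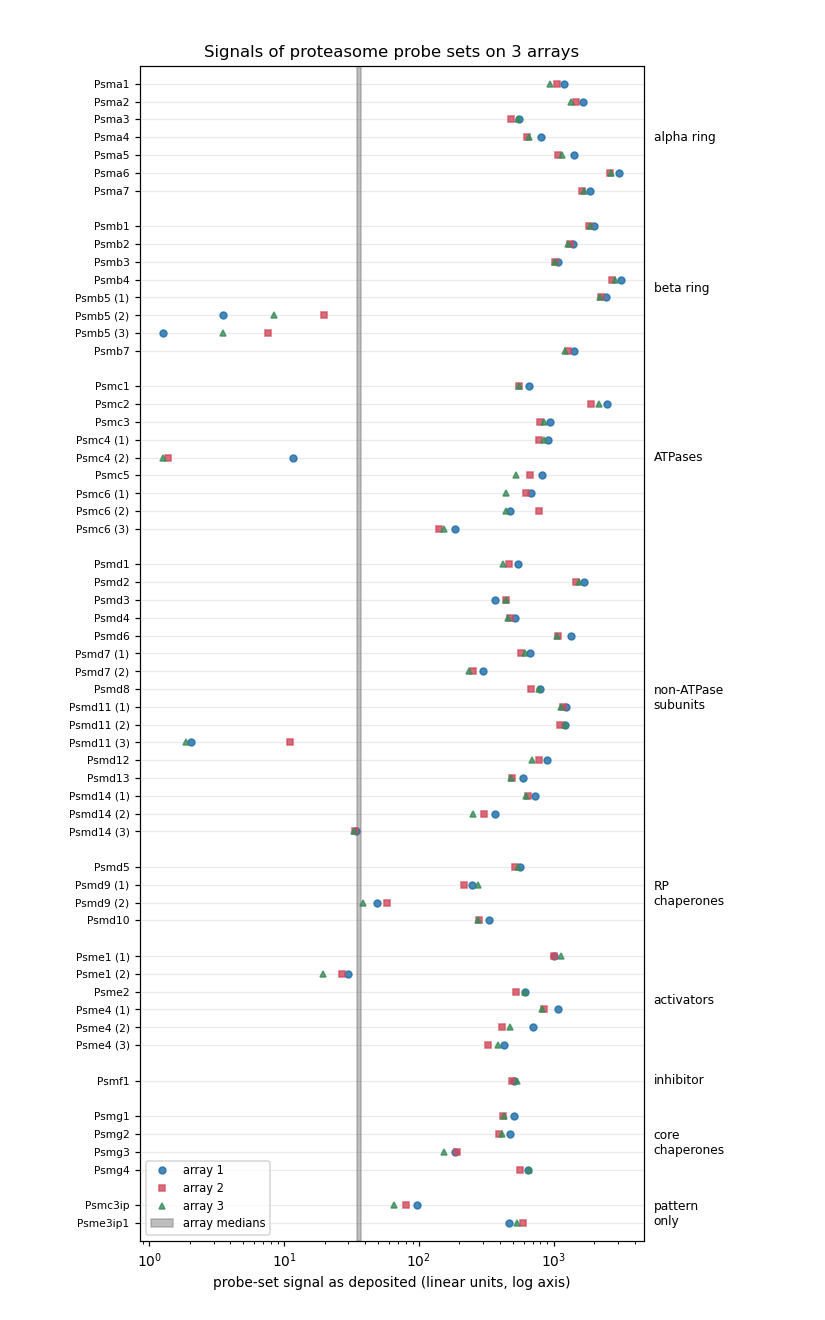
Signals of all 57 member probe sets (linear units on a log axis) on array 1 (circles), array 2 (squares) and array 3 (triangles), grouped by role; numbers in brackets tell probe sets of 1 gene apart, RP stands for regulatory particle and the grey band spans the 3 array medians (34.9 to 37.4). Of the 57 rows, 51 lie to the right of the band on all 3 arrays, and the 6 others are dimmer probe sets of Psmb5, Psmc4, Psmd11, Psmd14 and Psme1.

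Among the alpha ring genes, Psma6 gave 3051, 2641 and 2667, Psma7 gave 1852, 1634 and 1686, and Psma2 gave 1659, 1470 and 1359. Psma5 gave 1410, 1079 and 1163, Psma1 gave 1202, 1063 and 938, and Psma4 gave 814, 641 and 662. Psma3, read from its only probe set that names 1 gene, gave 556, 484 and 540. Array 1 held the highest signal of all 7, and after median centring it was the highest array for 6 of them, Psma3 being highest on array 3.

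The beta ring had the smallest median range of all classes between preparations, with median centring and with quantile normalization. Psmb5, the chymotrypsin-like catalytic subunit, gave 2437, 2247 and 2225 on its main probe set, a mean of 2303 ± 117 (SD, n = 3). Psmb7, the trypsin-like subunit, gave 1422, 1278 and 1220 (1307 ± 104). These catalytic genes were highest on array 1 with median centring, by 1.09-fold and 1.12-fold over their lowest array, and highest on array 2 with quantile normalization. The structural members Psmb3 (1086, 1028 and 1031) and Psmb2 (1397, 1315 and 1286) had 2 of the 3 smallest ranges of all members above the median level with median centring, 1.06-fold and 1.07-fold, but not with quantile normalization. Psmb1 gave 1988, 1822 and 1876, and Psmb4, which lies in the ring without cutting, gave 3146, 2714 and 2859. The median range over the 6 beta ring probe sets above the median level was 0.13 log2 units, compared with 0.23 for 7 of the alpha ring and 0.38 for 8 of the ATPases. Of these 8, 3 belong to the single gene Psmc6, with ranges of 0.72, 0.54 and 0.37, while the ring probe sets counted here are 1 per gene. These 6 beta ring probe sets exceeded the 75th percentile on all 3 arrays, as did the 7 of the alpha ring and 7 of the 8 of the ATPases. Over all 1-gene probe sets the median range was 0.26 above that percentile and 0.30 above the median level. The difference between the classes was described and not tested, nor was the part of signal level in it.

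The ATPase genes form the base of the regulatory particle. Psmc2 gave 2481, 1890 and 2178, Psmc3 gave 947, 792 and 848, and Psmc1 gave 654, 554 and 554. Psmc5 gave 815, 667 and 530, highest on array 1 and lowest on array 3, with a range of 0.54 log2 units that was among the 6 largest of the members above the median level. The probe sets of Psmc6 disagreed about the highest array under both scalings. Its brightest probe set gave 685, 623 and 444, the next gave 477, 782 and 445 and the dimmest gave 186, 142 and 153. The brightest and the dimmest were highest on array 1 and the other on array 2, by 1.65-fold over its lowest array. With quantile normalization the brightest was highest on array 2 too.

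Of the non-ATPase subunits, Psmd2, a large scaffold of the base, gave 1677, 1456 and 1534, and Psmd1, the other scaffold, gave 541, 464 and 422. Psmd14, the deubiquitinase of the lid, gave 727, 643 and 627 on its main probe set and 368, 306 and 254 on its second. The ubiquitin receptor gene Psmd4 gave 521, 477 and 460. In the lid, Psmd11 gave 1232, 1168 and 1140 on its main probe set, the smallest range of all members above the median level with median centring (1.06-fold) but not with quantile normalization, Psmd6 gave 1341, 1084 and 1054, and Psmd12 gave 900, 781 and 696. Psmd7, the partner of Psmd14, gave 666, 575 and 612 on its main probe set and 300.4, 252 and 237 on its second, Psmd8 gave 789, 683 and 783, and Psmd13 gave 594, 494 and 483. Psmd3, a lid subunit, ran the other way, with 369, 447 and 444, and was lowest on array 1 under both median centring and quantile normalization.

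Every probe set of the assembly factors and of the inhibitor exceeded the array median on each of the 3 arrays. Among chaperones of the regulatory particle, Psmd5 gave 564, 517 and 548, Psmd10 gave 331, 278 and 274, and Psmd9 gave 249, 216 and 274 on its main probe set. The second Psmd9 probe set, at 49.0, 58.0 and 38.5, was highest on array 2 where the first was lowest. Among core chaperones, Psmg4 gave 645, 565 and 658, Psmg1 gave 513, 425 and 427 and Psmg2 gave 479, 395 and 416. The inhibitor gene Psmf1 gave 507, 488 and 533. Psme3ip1, taken in by the pattern only, gave 470, 595 and 533 and was lowest on array 1.

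Activator genes were followed on 6 probe sets. Psme1 gave 1013, 1006 and 1128 (1049 ± 68.8, SD, n = 3) on its main probe set, and Psme2 gave 611, 527 and 615 (584 ± 49.9). Both were highest on array 3 after median centring and after quantile normalization, although by 1.18-fold and 1.22-fold only over their lowest array. Psme4, which encodes a separate, single-chain activator, was measured on 3 probe sets. They gave 1079, 852 and 818, then 708, 411 and 473, and then 428, 328 and 385. All 3 were highest on array 1 under both scalings, and the middle one had the largest range of all members above the median level with median centring, 0.77 log2 units or 1.70-fold. With quantile normalization its range was 0.60, and the Psmc6 probe set highest on array 2 had the largest, 0.87.

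Several genes carried a probe set far below the others. In 5 of the 9 genes with more than 1 probe set, the probe sets fell on different sides of the array median. Beside the main Psmb5 probe set, the other Psmb5 probe sets, both designed from 1 other transcript sequence, gave 3.52, 19.7 and 8.37 and 1.27, 7.58 and 3.52. The second Psmc4 probe set gave 11.7, 1.38 and 1.27, against 909, 781 and 845 for the first. The dimmest Psmd11 probe set gave 2.03, 11.01 and 1.87, against 1209, 1111 and 1216 for the second. For Psmd14 the dimmest gave 34.4, 33.4 and 33.2, and for Psme1 the second gave 30.0, 26.9 and 19.5. All 6 low probe sets lay below the array median on every array, and which transcript each detects was not tested. Of the 9 genes, Psmc4, Psmd7 and Psme4 had the same highest array on all their probe sets, and the other 6 did not, with median centring. With quantile normalization those of Psmb5 and Psme4 had the same highest array, and those of the other 7 genes, Psmc4 and Psmd7 among them, did not.

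**Figure D2:**
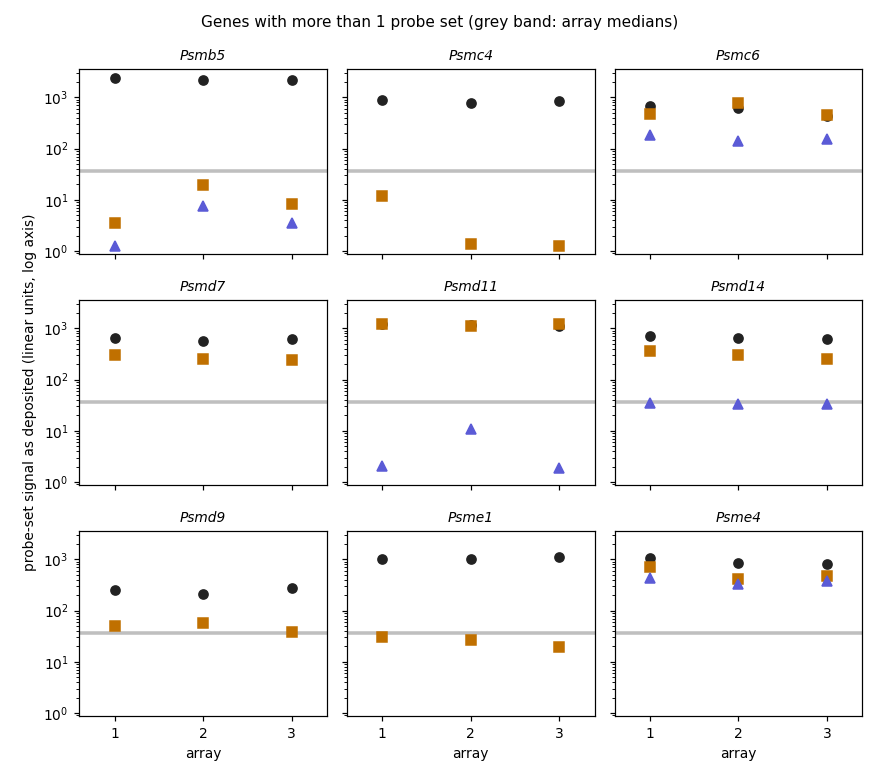
Signals (linear units on a log axis) by array of the 9 member genes with more than 1 probe set, with 1 symbol per probe set in order of mean signal and a grey band at the array medians. In Psmb5, Psmc4, Psmd11, Psmd14 and Psme1 at least 1 probe set lies below the band, and in Psmc6, Psmd7, Psmd9 and Psme4 all lie above it.

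The 3 preparations were then compared as single samples, since 1 group gives no test between conditions. Values were taken as log2(signal + 16) and centred on each array's median, and the range of a probe set is its highest minus its lowest array. Of the 57 member probe sets, 0 had a range of 2-fold or more, against 4.72% of all 1-gene probe sets. Of the 51 members above the median level, 0 reached 2-fold, against 2.15%, and 2 reached 1.5-fold, against 13.2%: the second probe sets of Psmc6 and Psme4. The shares were smaller among the 6036 1-gene probe sets above the 75th percentile on all arrays, where 47 of the 57 members lie. Of these 6036, 53 reached 2-fold and 403 reached 1.5-fold. The median range of the 51 members above the median level was 0.26 log2 units (1.20-fold), against 0.30 (1.23-fold) for all 1-gene probe sets above the median level and 0.26 for those above the 75th percentile on all arrays. Without array 1 the members' median range was 0.145 and without array 2 it was 0.156, a range over fewer arrays being no larger by construction. With quantile normalization the median range was 0.17 for the members, 0.27 for all and 0.21 for those above the 75th percentile. On this scaling too, 0 of 51 reached 2-fold and the same 2 probe sets reached 1.5-fold.

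**Figure D3:**
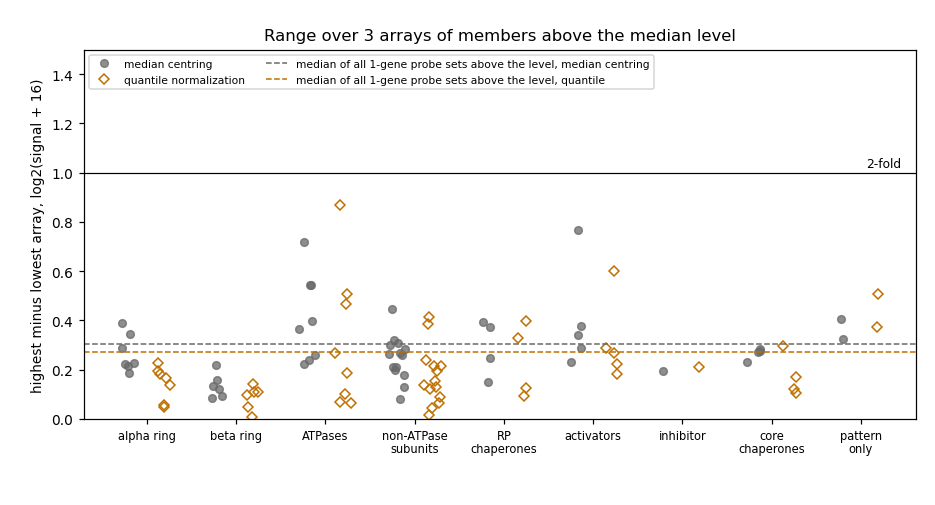
Range over the 3 arrays, as highest minus lowest log2(signal + 16), of the 51 member probe sets above the median level by role, with median centring (filled circles) and quantile normalization (open diamonds); dashed lines are the medians of all 1-gene probe sets above that level (0.30 and 0.27). No member reaches the line at 2-fold, and beta ring members lie lowest with median centring, at a median of 0.13.

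Most members were highest on array 1 and lowest on array 2 with median centring, and this pattern depended in part on the scaling between arrays. Of the 51 members above the median level, 37 were highest on array 1 (48.0% of all 1-gene probe sets above that level), 4 on array 2 (16.9%) and 10 on array 3 (35.1%). Lowest on array 2 were 37 of the 51, against 6216 of all 12159 above that level. Of the 6036 1-gene probe sets above the 75th percentile on all arrays, 3411 were highest on array 1, 564 on array 2 and 2061 on array 3. On array 2, 3764 of these 6036 were lowest. The members' median difference from their own means was 0.11, -0.10 and -0.01 log2 units on arrays 1, 2 and 3, and that of all 1-gene probe sets above the level was 0.06, -0.07 and 0.01. With quantile normalization, 22 were highest on array 1 (32.6% of all), 18 on array 2 (31.5%) and 11 on array 3 (35.9%), and the members' median differences were 0.02, -0.00 and -0.03. Beta ring members showed the dependence most plainly: all 6 above the level were highest on array 1 with median centring and on array 2 with quantile normalization. The Psme4 probe sets on array 1 and the main Psme1 and Psme2 probe sets on array 3 kept their highest array under both scalings. This was not particular to activators. Psmc2, Psma5 and Psmd6, among others, kept array 1, and Psma3, Psmd8 and Psmf1, among others, kept array 3. The ratio of signals from the 3′ and 5′ ends of the beta-actin control was 3.85, 3.28 and 3.66 on the 3 arrays, that of GAPDH was 1.52, 1.52 and 1.40, and that of hexokinase was 2.10, 5.50 and 2.15, and the part of RNA quality in these differences was not tested.

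**Figure D4:**
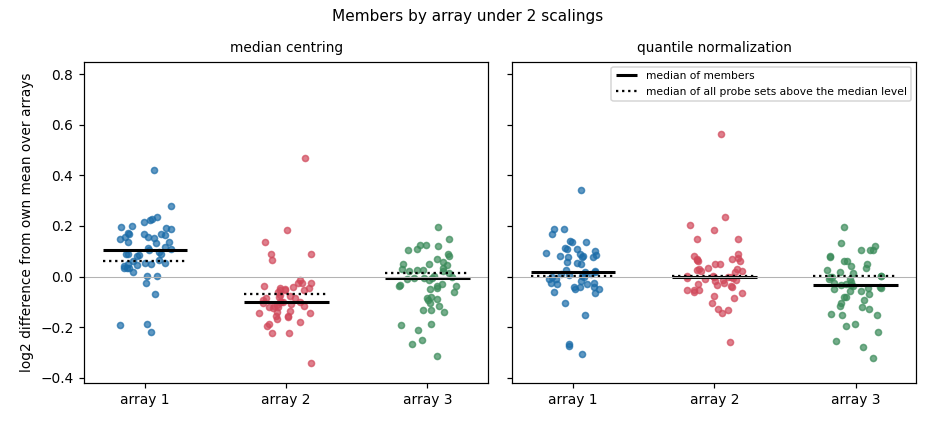
Difference of each of the 51 member probe sets above the median level from its own mean over the arrays (log2 units), by array, with median centring (left) and quantile normalization (right); solid bars are member medians and dotted bars the medians of all 1-gene probe sets above that level. Members sit above 0 on array 1 (median 0.11) and below 0 on array 2 (-0.10) with median centring, and near 0 on both with quantile normalization (0.02 and -0.00).

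Of the 3 induced catalytic subunits, 1 exceeded the array median on all 3 arrays. Psmb8 gave 10.7, 37.1 and 18.7, below the array median on all 3 arrays. Psmb9 gave 34.8, 42.5 and 40.6, above it on arrays 2 and 3, and Psmb10 gave 58.1, 57.5 and 60.7, above it on all 3. The peptide transporter genes Tap1 (5.89, 15.6 and 22.2) and Tap2 (13.2, 22.4 and 22.2), which work downstream of the induced core, were under it on every array. B2m, the light chain of MHC class I, gave 9181, 7295 and 7851.

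Interferon-inducible genes were placed beside the activators because Psme1 and Psme2 belong to that response in other cells. Of 14 measured genes of this list, 10 were highest on array 3, against 36.8% of all named genes, and 9 were with quantile normalization. Most of these 10 were not above the median level. Among the 6 genes above it, Tapbp, Irf7 and RT1-Bb were highest on array 3 with median centring, and Irf7 and RT1-Bb with quantile normalization. Of all 1-gene probe sets above that level, 35.1% were highest on array 3 with median centring. The antiviral GTPase gene Mx2 gave 1117, 15.0 and 809, and RT1-Bb, a class II chain, gave 1169, 20.7 and 2230, with ranges of 5.20 and 6.005 log2 units. Irf7, an interferon regulatory factor, gave 50.7, 49.7 and 97.1. Psme2 was lowest on array 2, as Mx2 and RT1-Bb were, but by 1.22-fold only, and Psmb8 was highest there. Ifit1 (1.41, 1.70 and 2.22), Ifit3 (21.0, 18.6 and 14.9) and Oas1a (24.7, 15.7 and 26.7) lay below the array median on all 3 arrays. Mx1 gave 24.8, 12.5 and 40.1, Ifit2 gave 25.2, 21.8 and 38.2 and Isg15 gave 24.9, 22.2 and 38.9, each above the median on array 3 only. The summed signal of the list was 11805, 7718 and 11388, most of it from B2m. Markers of other cells were often highest on array 3 as well, with 6 of 9 of leukocytes, 5 of 6 of stroma, 5 of 6 of collecting duct and 3 of 5 of endothelium, whose summed signal was 756, 1059 and 1269. The part of interferon exposure or of these cells in the array 3 values of Psme1 and Psme2 was not tested.

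**Figure D5:**
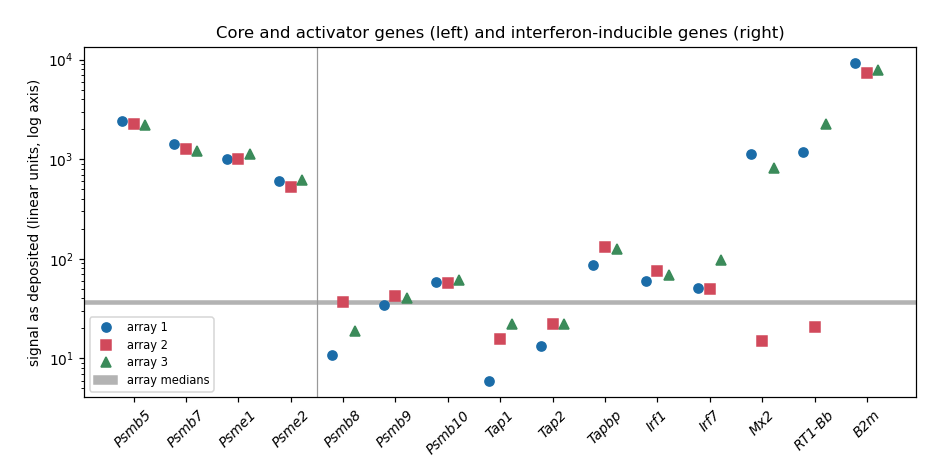
Signals (linear units on a log axis) on array 1 (circles), array 2 (squares) and array 3 (triangles) of 2 catalytic core genes and the activator genes Psme1 and Psme2 (left of the line) and of induced subunits and other interferon-inducible genes (right), with a grey band at the array medians. Psme1 and Psme2 range by 1.18-fold and 1.22-fold, while Mx2 and RT1-Bb fall below the band on array 2 only.

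Other genes of the pathway were read from a list in the same way. Of 59 listed genes 49 were measured, and 37 of them exceeded the array median on each of the 3 arrays, against 61.0% of all named genes; outside the induced subunits and the interferon genes these were 32 of 32. Above the median level, 2 of 40 ranged by 2-fold or more, against 2.08% of named genes, and both were the interferon-list genes Mx2 and RT1-Bb; without array 2 the count was 0. Pomp, the chaperone that matures the core, gave 2854, 2631 and 2714. Sem1, a small subunit of the lid, gave 2015, 1730 and 1741, Adrm1, a ubiquitin receptor, gave 264, 269 and 258, and the deubiquitinase genes Usp14 and Uchl5 gave 881, 779 and 790 and 755, 618 and 607. Vcp, the segregase that delivers substrates, gave 2396, 2043 and 2270. Uba1, which activates ubiquitin, gave 1095, 970 and 1059.

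Genes that control proteasome transcription were measured too. Nfe2l1, the factor that raises proteasome genes when the proteasome is inhibited, gave 184, 195 and 188. Its activators Ddi2, a protease, and Ngly1, a deglycosylase, gave 377, 288 and 293 and 1089, 869 and 782. Nfe2l2, the oxidative stress factor, gave 1270, 1473 and 899 and ranged by 0.63 log2 units, more than 49 of the 51 members above the median level. Array 2 held its highest value, where most member probe sets were lowest with median centring. Its partners Mafg (265, 288 and 206) and Mafk (111, 139 and 105) were also highest on array 2, and its inhibitor Keap1 gave 197, 199 and 223. Maf gave 4848, 5468 and 5991, highest on array 3. Of the 7 genes Nfe2l1, Nfe2l2, Ngly1, Maf, Mafg, Mafk and Keap1, 1 was highest on array 1, 3 on array 2 and 3 on array 3 with median centring. Of all 1-gene probe sets above the median level, 48.0%, 16.9% and 35.1% were highest on arrays 1, 2 and 3.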

How the data were processed

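Tubule RNA of 3 preparations was measured on Affymetrix arrays from biotin-labelled cRNA, per the labels' protocols. The deposited values are linear signal intensities, 1 per probe set. Of 31099 probe sets, 57 controls were left out. The summarisation software, the scaling between arrays and detection calls are not given in the sources used here. Symbols came from the platform annotation provided with the values, which named 1 gene for 20826 probe sets, several for 436 and none for 9780; all 43 member genes matched a RefSeq table (GRCr8) by gene identifier, with 0 changes of symbol.

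The scale was log2(signal + 16) minus the array median of that value. A probe set was above the median level when its mean over arrays exceeded the median of such means. Genes with several probe sets were read from the brightest. No test between groups was possible with 1 group, so counts and medians are given beside those of all 1-gene probe sets, and the number of arrays limits their precision. Alternatives were a pseudocount of 1 or 64, the 25th or 75th percentile in place of the median, no centring, quantile normalization, other filters, probe sets without a suffix and leaving out each array. Members, lists and motifs were chosen with earlier results of these data known. Any member could be named; values on every array were required for catalytic subunits, activators, members below the array median, the 6 largest and 3 smallest ranges and genes whose probe sets disagreed. The functions were tested on simulated arrays. Protein sequences were not used here. Python 3.11.15, numpy 2.4.6, pandas 2.3.3 and matplotlib 3.10.9 were used.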

Additional observations from a re-analysis of the deposited data

How the results depend on the processing

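Counts of members and genes above the array median moved by less than 1.5 times under every alternative run. With quantile normalization the median difference of all member probe sets on array 1 went from 0.098 to 0.0098 log2 units. On that scaling the median difference on array 2 turned from -0.08 to 0.00202, the number highest on array 1 went from 39 to 24 and on array 2 from 7 to 21. Reading only members above the median level left 4 highest on array 2, and no centring left 6 in place of 11 highest on array 3. At 1.5-fold in place of 2-fold, 2 member probe sets in place of 0 were counted. Without replicate 2 the pathway genes ranging by 2-fold or more went from 2 to 0 and over the 3 left-out arrays they ran from 0 to 2. Leaving out single arrays gave median ranges from 0.145 to 0.214 (0.262 with all), and median differences from 0.0561 to 0.102 on array 1, from -0.102 to -0.0302 on array 2 and from -0.0561 to 0.0302 on array 3.

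The differences of subunit groups and named members by array changed sign 30 times over all alternatives. Of these changes, 22 concerned reported differences under 0.05 log2 units, under several settings, and 8 concerned larger ones, all with quantile normalization: alpha ring on array 2 (0.0208), beta ring on array 1 (-0.0341) and array 2 (0.0643), non-ATPase subunits on array 2 (0.0121), Psmb5 on array 1 (-0.0266) and array 2 (0.0682), Psmb7 on array 2 (0.0614) and Psme1 on array 2 (0.0189). Quantile normalization gives all arrays 1 distribution; the cause was not tested further. No paired analysis was possible because the samples form 1 group. Without detection calls, low signals cannot be told apart from background.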
